A study of Homo sapiens with 4 samples.

Results

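GDF15, the sestrin genes SESN1, SESN2 and SESN3, and DDIT4 encode a stress cytokine and restraints on the growth kinase complex mTORC1. They were described here in MDA-MB-231 cells given YW-LF or the solvent DMSO. The genes were chosen by name, with earlier results of these data known. Of these, 5 of 5 were matched by Ensembl identifier among the 20263 genes of the count table. All 5 were among the 13816 genes tested. The treated group was MDA-MB-231, a human cell line from a triple-negative breast cancer, kept 24 h with YW-LF, which the series title describes as derived from ribociclib, an inhibitor of CDK4 and CDK6 (n = 2). The control group was the same line with DMSO (n = 2), and both groups grew in medium with 10% fetal bovine serum. The labels state no dose for the compound. The comparison asks how the transcripts of these genes differ with the compound. The labels do not tie the replicates to separate cultures. The p-values therefore cover the spread between these libraries alone, and that spread may be technical.

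GDF15 is a secreted relative of the TGF-beta family that many cell stresses induce, and its receptor GFRAL, which signals with RET, is known from the hindbrain. Sestrins bind the GATOR2 complex. This frees GATOR1 to switch off the Rag GTPases, which otherwise bring mTORC1 to the lysosome. SESN2 is also a leucine sensor. DDIT4, also called REDD1, restrains mTORC1 by another route, through the TSC complex. SESN1 and SESN2 are known p53 targets, SESN2 and DDIT4 are also known ATF4 targets, SESN3 is a known FOXO target, and DDIT4 responds to hypoxia and glucocorticoids.

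Libraries held 34774542 to 40218240 counts, and 1 count was worth 0.0199 to 0.0324 CPM (CPM, the count scaled to library size with trimmed mean of M-values, TMM, factors, used throughout). The YW-LF libraries resembled each other less (Pearson r = 0.907 in log2 CPM across genes, which are not independent replicates) than the DMSO libraries did (0.976). YW-LF replicate 1 correlated with the DMSO libraries at 0.922 and 0.911, above its value with its own replicate, and YW-LF replicate 2 at 0.865 and 0.859. Every YW-LF mean below is taken over this pair. Counts from mitochondrially encoded genes were 3.14% and 6.58% of the total in YW-LF and 8.68% and 21.7% in DMSO. With these genes left out, the log2 fold changes of GDF15, SESN2 and DDIT4 were 4.05, 2.70 and 1.05. Of 9 genes known to be abundant in this line, such as VIM and AXL, 9 reached at least 1 CPM in every library, a low bar. S100A4, from this list, was at 6.38 and 28.8 CPM in YW-LF and 5.29 and 5.65 CPM in DMSO. Of 8 listed as low or absent, 4 nevertheless reached that bar. Among them, KRT8 (a simple epithelial keratin) was at 181 and 433 CPM in YW-LF and 275 and 296 CPM in DMSO. ERBB2 was at 69.2 and 30.2 CPM in YW-LF and 71.9 and 64.2 CPM in DMSO. CDH1 and ESR1 stayed under 1 CPM in every library. Markers of leukocytes, endothelium, red cells and fat cells summed to 1.97 and 0.388 CPM in YW-LF and 2.42 and 1.82 CPM in DMSO over 8 genes, of which 3 (CD3E, CDH5 and ADIPOQ) had no count. In bulk RNA, fewer cells that express a gene and less RNA per cell cannot be told apart.

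The 5 genes fell into 2 patterns. GDF15 and SESN2 were higher in both YW-LF libraries than in both DMSO libraries. SESN1, SESN3 and DDIT4 were above both DMSO libraries in YW-LF replicate 1 and below both in YW-LF replicate 2. Groups that do not overlap, with YW-LF above, made up 28% of all genes tested, YW-LF below made up 27.8%, and either made up 55.8%, so 2 of 5 is near that background. The arrangement of the other 3 genes was found in 11.8% of genes tested, and YW-LF replicates on opposite sides of both DMSO libraries, in either order, in 22%. The median log2 fold change of the 5 genes was 1.06, beside 0.06 over all genes tested.

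**Figure D1:**
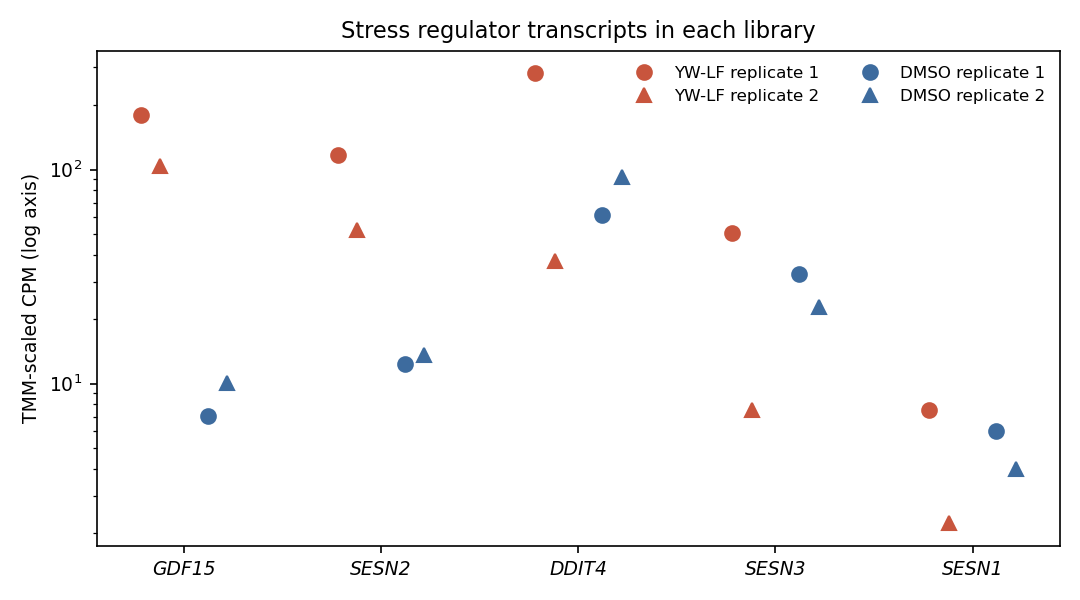
TMM-scaled CPM (log axis) of each gene in each library, with YW-LF in red to the left of DMSO in blue, and replicate 1 as circles and replicate 2 as triangles. For GDF15 and SESN2 both red points lie above both blue points, whereas for DDIT4, SESN3 and SESN1 the red points lie on either side of the blue ones.

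GDF15 (ENSG00000130513, chromosome 19, 18374731 to 18389176, plus strand, GENCODE 29 on GRCh38) had 9043 and 3199 counts in YW-LF replicates 1 and 2, against 264 and 337 in DMSO replicates 1 and 2. In CPM it stood at 180 and 104 in YW-LF, against 7.05 and 10.1 in DMSO. Both treated libraries were high, and the lower of them was 10.3 times the higher control. The fitted difference was 16.6-fold, a log2 fold change of 4.05 (SE 0.48, 95% interval 2.9 to 5.2). It ranked 10 of 13816 by p and 140 by fold change. Even so, the quasi-likelihood test of edgeR, adjusted by Benjamini and Hochberg's method over all genes, gave an adjusted p of 0.117, above the threshold of 0.05. DESeq2 gave an adjusted p of 6.73e-13. When each library was left out in turn, the edgeR log2 fold change of GDF15 was 3.59 to 4.38. Each such fit leaves a lone library in a group, so the remaining pair alone sets the spread.

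Transcripts of its receptor were barely counted. Of 6 genes of the GDF15 axis 4 were tested, with 2 above DMSO and 0 below, beside 28% and 27.8% of all genes tested. Their median log2 fold change was 0.30. GFRAL had 0 counts in every library, which allows up to 0.0597 and 0.0971 CPM in YW-LF and 0.0801 and 0.0897 CPM in DMSO (3 counts per library, counting error only). RET had 6 and 0 counts in YW-LF and 0 and 0 in DMSO. FURIN, a protease that matures many secreted precursors, was at 57.2 and 63.7 CPM in YW-LF and 53.6 and 56.4 CPM in DMSO (log2 fold change 0.14, SE 0.34). MMP14, a membrane protease known to cleave GFRAL, was at 556 and 355 CPM in YW-LF and 413 and 470 CPM in DMSO (0.05, SE 0.45).

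SESN2 (ENSG00000130766, chromosome 1, 28259527 to 28282491, plus strand) had 5879 and 1615 counts in YW-LF, against 466 and 454 in DMSO. This came to 117 and 52.3 CPM in YW-LF and 12.4 and 13.6 CPM in DMSO. The controls nearly coincided, and the lower treated library was 3.85 times the higher control. The log2 fold change was 2.70 (SE 0.49, 95% interval 1.52 to 3.88), or 6.51-fold, with an adjusted p of 0.121 in edgeR and 2.64e-05 in DESeq2. Its rank was 114 by p and 368 by fold change. SESN2 passed in edgeR without YW-LF replicate 1 (log2 fold change 2.003) and without YW-LF replicate 2 (3.16), but not without DMSO replicate 1 (2.66, adjusted p = 0.21) or without DMSO replicate 2 (2.75, adjusted p = 0.226).

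edgeR called 0 of the 5 genes, and over all genes tested it called 0% (0 higher and 0 lower). At an unadjusted p under 0.05 it had 2 of the 5 genes, both higher (GDF15 and SESN2), against 11.5% of all genes higher and 9.01% lower, or 20.5% in all. DESeq2 called the same 2 genes, beside 5.91% of all genes higher and 4.49% lower, or 10.4% in all. limma-voom called 0 genes, whereas with sample quality weights it called 1.27% of all genes higher and 0.405% lower (1.67% in all), GDF15 and SESN2 among the higher ones (adjusted p = 0.01 and 0.0279). edgeR called them too without a count filter (adjusted p = 0.0144 and 0.0382), beside 0.927% of genes higher and 0.718% lower (1.64% in all). With 2 libraries against 2, an exact permutation test of a single gene cannot go below p = 0.333 (two-sided), so none was run.

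Promoter sequences of the genes that stood high in both treated libraries are shown to let their start-proximal letters be compared. They run over the 250 bases before the RefSeq start (GRCh38.p14), 5′ to 3′ on the gene's strand. Capitals mark matches to the motifs named after them. The GDF15 stretch is chr19:18385908-18386157 (plus strand) and the SESN2 stretch is chr1:28259268-28259517 (plus strand). The RefSeq start of GDF15 lies inside the longer gene body that GENCODE 29 gives.
GDF15: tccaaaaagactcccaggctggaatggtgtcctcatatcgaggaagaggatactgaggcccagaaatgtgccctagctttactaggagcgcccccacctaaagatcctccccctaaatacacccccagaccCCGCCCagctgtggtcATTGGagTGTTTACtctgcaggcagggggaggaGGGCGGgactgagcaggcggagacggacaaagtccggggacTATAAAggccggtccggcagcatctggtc
SESN2: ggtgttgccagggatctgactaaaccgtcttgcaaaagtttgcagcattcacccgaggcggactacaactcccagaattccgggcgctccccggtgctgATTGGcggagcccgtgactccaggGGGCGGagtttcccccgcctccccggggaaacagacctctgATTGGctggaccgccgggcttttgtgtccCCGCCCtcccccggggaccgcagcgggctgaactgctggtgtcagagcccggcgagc
Motifs were searched on both strands. In GDF15 the capitals mark a GC box (GGGCGG) at 119 to 114 and 70 to 65 bases before the start, a CCAAT box (CCAAT) at 103 to 99, a FOXO element (GTAAACA) at 96 to 90 and a TATA box (TATAAA) at 29 to 24. In SESN2 they mark CCAAT boxes at 151 to 147 and 86 to 82 and GC boxes at 127 to 122 and 57 to 52. Of 35116 such stretches in the RefSeq table, 42.6% hold a GC box, 32% a CCAAT box, 10.7% the TATA box and 2.98% the FOXO element. Neither stretch holds the ATF4 and C/EBP composite element (TGATGNAA, in 3.14% of stretches), the AP-1 element (TGANTCA, 6.57%), the NRF2 element (TGACNNNGC, 10.9%), the hypoxia core (ACGTG, 18.5%) or the p53 consensus unit (5.57%), which says only that these letters are not in these windows.

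DDIT4 (ENSG00000168209, chromosome 10, 72273920 to 72276036, plus strand) had 14180 and 1163 counts in YW-LF, against 2289 and 3104 in DMSO. In CPM, YW-LF replicate 1 was the highest library at 282 and YW-LF replicate 2 the lowest at 37.6, with DMSO between them at 61.1 and 92.8. Against the DMSO mean, YW-LF replicate 1 stood 3.67-fold higher and YW-LF replicate 2 at a ratio of 0.489. The fitted log2 fold change of 1.06 (SE 0.85, 95% interval -0.98 to 3.09, edgeR adjusted p = 0.512) averages libraries that point in opposite directions. Without YW-LF replicate 2 it was 1.86, and without YW-LF replicate 1 it was -1.03.

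SESN3 (ENSG00000149212, chromosome 11, 95165513 to 95232541, minus strand) had 2536 and 233 counts in YW-LF and 1224 and 764 in DMSO, or 50.5 and 7.54 CPM in YW-LF and 32.7 and 22.8 CPM in DMSO. The treated libraries were again the highest and the lowest of the 4. The log2 fold change was 0.06 (SE 0.80, 95% interval -1.86 to 1.99, edgeR adjusted p = 0.972). It turned to -1.89 without YW-LF replicate 1 and was 0.85 without YW-LF replicate 2. Its sign also turned in limma-voom, at -0.40.

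SESN1 (ENSG00000080546, chromosome 6, 108986437 to 109094819, minus strand) was the least abundant, with 377 and 69 counts in YW-LF and 224 and 134 in DMSO. These were 7.5 and 2.23 CPM in YW-LF and 5.98 and 4 CPM in DMSO. The groups overlapped in the same arrangement, on a smaller scale. The log2 fold change of -0.03 (SE 0.71, 95% interval -1.74 to 1.67, edgeR adjusted p = 0.984) had no stable sign. It was 0.57 without YW-LF replicate 2, -1.17 without YW-LF replicate 1 and 0.17 with library size as the only scaling. Antisense genes overlap SESN1, SESN3 and DDIT4 in the annotation, and the sources used here do not say whether reads were assigned by strand, so part of these counts could belong to them.

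For the genes whose treated libraries diverged, the start-proximal stretches of DDIT4 (chr10:72273674-72273923, plus strand) and SESN3 (chr11:95232476-95232725, minus strand) are shown as counterparts of those above, with the same marking.
DDIT4: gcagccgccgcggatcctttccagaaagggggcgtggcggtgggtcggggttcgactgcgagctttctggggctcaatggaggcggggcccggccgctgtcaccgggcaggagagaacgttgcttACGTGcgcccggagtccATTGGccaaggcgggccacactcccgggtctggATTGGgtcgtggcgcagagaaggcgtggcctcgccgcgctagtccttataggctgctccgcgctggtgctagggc
SESN3: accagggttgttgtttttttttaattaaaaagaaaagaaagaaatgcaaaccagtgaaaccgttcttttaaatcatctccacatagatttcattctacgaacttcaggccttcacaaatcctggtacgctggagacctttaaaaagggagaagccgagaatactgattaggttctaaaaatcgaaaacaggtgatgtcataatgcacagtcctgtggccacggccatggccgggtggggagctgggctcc
DDIT4 holds a hypoxia core at 125 to 121 bases before the start, in the letters ACGTG, and CCAAT boxes at 108 to 104 and 75 to 71. SESN3 holds none of the motifs searched, a GC box included. SESN1 has 3 starts in the RefSeq table, which gene counts cannot separate, and its sequences are not printed. Between them these hold GC boxes, CCAAT boxes and 1 NRF2 element. At 49 to 40 bases before 1 of the starts lies 1 p53 consensus unit (GGACAAGTCT), a single unit and not a paired p53 site.

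The gap between YW-LF replicates was wider for these genes than for most. Replicate 1 exceeded replicate 2 by a log2 ratio of 2.90 for DDIT4, 2.73 for SESN3 and 1.73 for SESN1, against 1.16 for SESN2 and 0.80 for GDF15. All 5 genes were higher in replicate 1, whereas the median over all genes tested was 0.01, with 5% of genes below -1.81 and 5% above 2.16. A gap at least as large in this direction was seen in 2.12% of genes for DDIT4 and 2.55% for SESN3. Between the DMSO replicates the corresponding range over all genes was -0.92 to 0.73. The gap moved with transcript length over all genes, with a median log2 ratio of -0.49 in the shortest of 10 equal bins of genes (207 to 2072 bases of merged exons) and 0.26 in the longest (10632 bases and more). DDIT4, at 2058 bases, lies in the shortest bin and SESN3, at 10573 bases, in bin 9 (median 0.22), so the gaps of both exceed those medians. The part of length in these gaps was not tested.

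**Figure D2:**
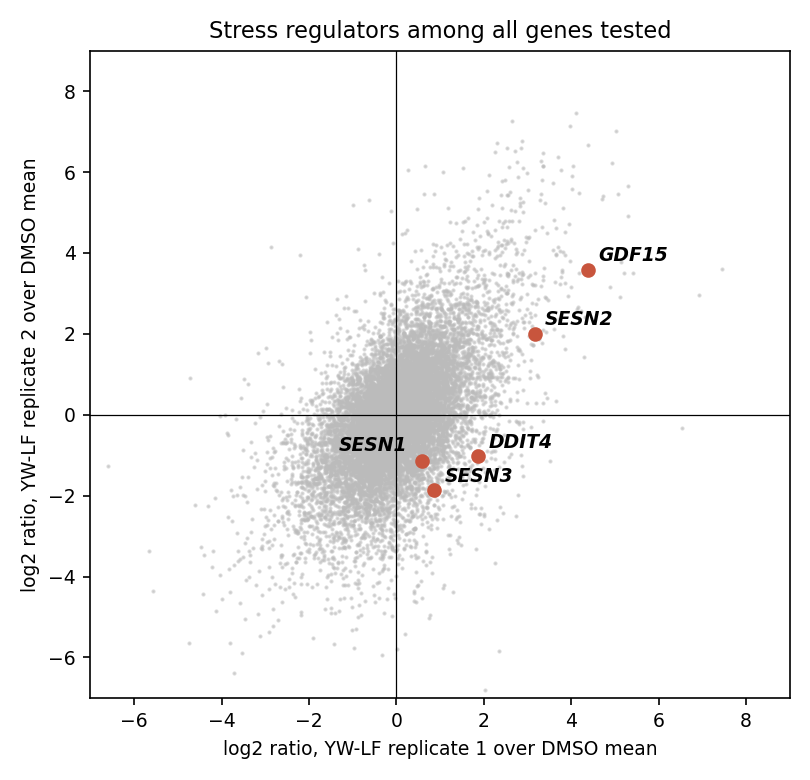
Each point is a gene, placed by its log2 ratio to the DMSO mean in YW-LF replicate 1 (x axis) and in YW-LF replicate 2 (y axis), with 0.05 CPM added to every value. The axes share the DMSO libraries, so the slope of the cloud is not a result. GDF15 and SESN2 lie to the upper right, and DDIT4, SESN3 and SESN1 lie to the right of 0 and below it.

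SESN2 made up a larger part of the sestrin transcripts in both treated libraries than in either control. Per kilobase of merged exon length, SESN2 made up 84.5% and 92.9% of sestrin transcripts in YW-LF, against 45.8% and 57.2% in DMSO. SESN3 accounted for 11.9% and 4.38% in YW-LF and 39.3% and 31.4% in DMSO. SESN1 gave 3.65% and 2.68% in YW-LF and 14.9% and 11.4% in DMSO. The groups did not overlap for any of these shares, including those of SESN1 and SESN3, whose levels did overlap. These shares must add up to the whole, so they are not independent of each other, and no test was made. The summed sestrin level was 40.1 and 16.3 CPM per kilobase in YW-LF and 7.86 and 6.87 in DMSO.

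**Figure D3:**
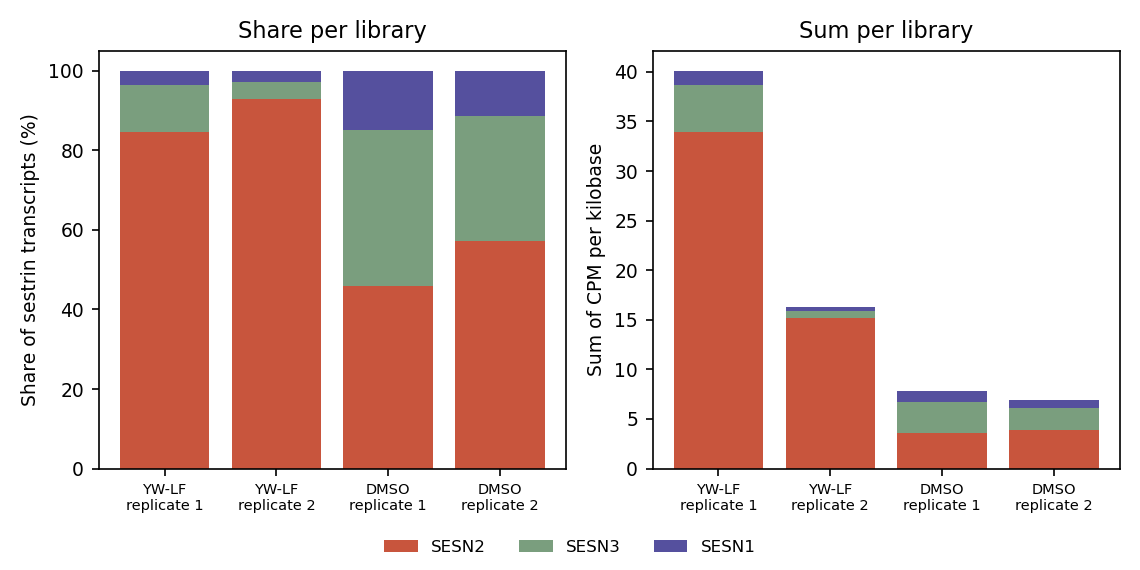
Stacked bars give SESN2, SESN3 and SESN1 per library, as a share of sestrin transcripts per kilobase (left, %) and as summed CPM per kilobase (right), with YW-LF left of DMSO. SESN2 fills 84.5% and 92.9% of the YW-LF bars and 45.8% and 57.2% of the DMSO bars.

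By level per length, SESN3 and SESN1 were the lowest in every library, SESN1 below SESN3, and DDIT4 was first in all but YW-LF replicate 2. DDIT4 stood at 137 and 18.3 CPM per kilobase in YW-LF and 29.7 and 45.1 in DMSO. GDF15 stood at 86.2 and 49.6 CPM per kilobase in YW-LF and 3.38 and 4.83 in DMSO, and SESN2 at 33.9 and 15.1 in YW-LF and 3.6 and 3.93 in DMSO. GDF15 was thus above SESN2 in both YW-LF libraries, whereas in DMSO their order differed between the replicates. GDF15 was above DDIT4 in YW-LF replicate 2 alone. An order between genes rests here on merged exon length, which takes in every annotated exon. In CPM without division by length, SESN2 (12.4 and 13.6) was above GDF15 (7.05 and 10.1) in both DMSO libraries.

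Likeness of pattern was measured as the Euclidean distance between centred log2 CPM profiles over the 4 libraries, among genes with a mean of at least 5 CPM. Nearest to GDF15 were SGK2 (distance 0.491), STC1 (0.613) and SH3TC1 (0.634), where the median gene lay at 4.15. STC1, which encodes the hormone stanniocalcin 1, was at 541 and 421 CPM in YW-LF and 34.9 and 52.2 CPM in DMSO. For SESN2 the nearest were ZC3H6 (0.202), ERN1 (0.23) and TRPM4 (0.294). ERN1, the stress sensor IRE1 of the endoplasmic reticulum, was at 152 and 57.8 CPM in YW-LF and 17 and 17.9 CPM in DMSO. The closest profiles to SESN1 were those of CROT, FUT10 and ATM (0.0456 to 0.0961). Those closest to SESN3 were PGAP1, ATP7B and ZNF862 (0.0958 to 0.24), and those closest to DDIT4 were TGIF1, TP53INP1 and DHFR2 (0.405 to 0.532). Among the 5 genes, SESN1 and SESN3 were nearest each other (0.751) and GDF15 and SESN3 farthest apart (4.75).

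In the list of 5 GATOR2 genes, the complex that sestrins bind, 0 had both YW-LF libraries over the DMSO pair and 1 had both under it, and the median log2 fold change was 0.14. The gene under the DMSO pair was SEH1L, at 46.6 and 45.9 CPM in YW-LF and 81.4 and 67.4 CPM in DMSO (-0.69, SE 0.34). Below, a gene counts as above or below when its YW-LF libraries both lie on that side of the DMSO pair. Over all genes tested, 28% lay above and 27.8% below, with a median log2 fold change of 0.06. DESeq2 called 5.91% of all genes tested higher and 4.49% lower. MIOS and SEC13, other GATOR2 subunits, had overlapping groups and log2 fold changes of -0.18 (SE 0.43) and 0.16 (SE 0.39). Among 7 genes of GATOR1 and its lysosomal anchor KICSTOR, 3 lay above, 3 below, and the median was -0.10. KICS2, a KICSTOR subunit, was at 11 and 23.4 CPM in YW-LF against 2.43 and 1.76 CPM in DMSO (log2 fold change 3.03, SE 0.58, adjusted p = 0.121 in edgeR and 4.24e-05 in DESeq2). NPRL3, a GATOR1 subunit, was lower, at 31.8 and 31 CPM in YW-LF and 50.9 and 64.8 CPM in DMSO (-0.88, SE 0.35). ITFG2, another KICSTOR subunit, was at -1.03 (SE 0.48).

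Of 9 Rag and Ragulator genes, which carry mTORC1 to the lysosome, 8 were above and 0 below, with a median log2 fold change of 0.95. Over all genes tested these shares were 28% and 27.8%. No gene of this list passed in edgeR, and 2 passed in DESeq2, both higher, beside 5.91% of all genes tested. RRAGC, a Rag GTPase, was at 127 and 145 CPM in YW-LF and 36.8 and 42.3 CPM in DMSO (1.78, SE 0.36, adjusted p = 0.121 in edgeR and 0.00177 in DESeq2). LAMTOR3, a Ragulator subunit, was at 50.7 and 80.8 CPM in YW-LF and 24.3 and 16.9 CPM in DMSO (1.67, SE 0.42, adjusted p = 0.13 in edgeR and 0.0122 in DESeq2). LAMTOR5, another subunit, was at 1.34 (SE 0.47).

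Other nutrient sensors gave 4 of 8 genes above and 0 below, beside 28% and 27.8% of all genes tested, and a median of 0.81. FLCN, the folliculin protein that acts on RRAGC, was at 122 and 182 CPM in YW-LF and 44.5 and 42.9 CPM in DMSO (1.80, SE 0.39, adjusted p = 0.121 in edgeR and 0.00263 in DESeq2). Its partner FNIP1 was at 154 and 307 CPM in YW-LF and 65.9 and 85.6 CPM in DMSO (1.61, SE 0.47). SAR1B, a leucine-binding GTPase, was at 0.79 (SE 0.43).

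The arm through which DDIT4 acts was listed as 11 genes of the TSC complex, AMPK and LKB1, with the DDIT4 paralog DDIT4L. Of these, 6 were above and 3 below (median 0.76), beside 28% and 27.8% of all genes tested. The AMPK subunits PRKAB1 and PRKAB2 were at 1.11 (SE 0.41) and 1.21 (SE 0.50), and TBC1D7, a TSC subunit, at 0.91 (SE 0.44). Of 6 core mTORC1 genes, 0 lay above and 1 below, with a median of -0.31. The mTORC1 inhibitor subunit AKT1S1 (PRAS40) was that gene, at 83.1 and 93.7 CPM in YW-LF and 138 and 213 CPM in DMSO (-0.99, SE 0.39). RHEB, the GTPase that activates mTORC1, was at 0.40 (SE 0.45) and MLST8 at -0.32 (SE 0.42). DESeq2 and edgeR called no gene of these lists.

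Substrates of mTORC1 had 3 of 10 genes above and 2 below, near the 28% and 27.8% of all genes tested, with a median of 0.43. RPS6KB2, an S6 kinase, was at 1.20 (SE 0.46), TFE3, a transcription factor that mTORC1 keeps out of the nucleus, at 1.34 (SE 0.55), and the translation repressor EIF4EBP2 at -1.07 (SE 0.47). In the list of sestrin and DDIT4 partners, 5 of 9 lay above and 1 below (median 0.64). TXNIP, a thioredoxin-binding protein that pairs with DDIT4, was at 746 and 1090 CPM in YW-LF and 160 and 196 CPM in DMSO (2.36, SE 0.48, adjusted p = 0.121 in edgeR and 2.41e-05 in DESeq2). NFE2L2, which encodes NRF2, was at 198 and 203 CPM in YW-LF and 97.9 and 98.1 CPM in DMSO (1.03, SE 0.35), and SRXN1, a sulfiredoxin, at 1.20 (SE 0.51).

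**Figure D4:**
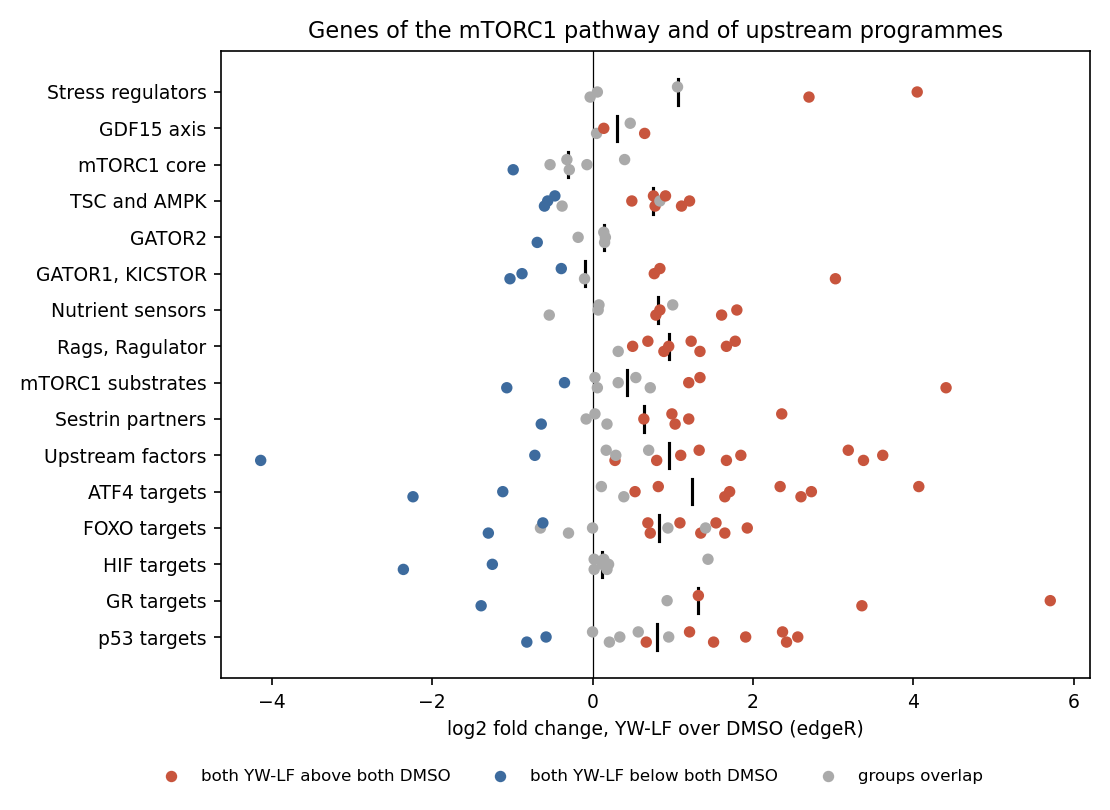
Each point is a gene, at its edgeR log2 fold change of YW-LF over DMSO, in lists of the mTORC1 pathway and of programmes upstream of the stress regulators (GR, glucocorticoid receptor). Red points have both YW-LF libraries above both DMSO libraries, blue points both below, grey points overlap, and black bars are medians. The Rag and Ragulator list has 8 of 9 points in red, and the HIF list has none, beside 28% of all genes tested.

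Several transcription factors known to act on these genes were higher in both treated libraries. Of 14 listed, 9 were above and 2 below, with a median of 0.95, beside 28% and 27.8% of all genes tested. DESeq2 called 6 higher and 1 lower, beside 5.91% and 4.49% of all genes tested, where edgeR called 0. The factor called lower was TP73, at 0.776 and 0.227 CPM in YW-LF and 6.78 and 11.3 CPM in DMSO (-4.14, SE 0.81). DDIT3 (CHOP) was at 171 and 54.3 CPM in YW-LF and 9.83 and 8.46 CPM in DMSO (3.62, SE 0.62, adjusted p = 0.121 in edgeR and 1.27e-07 in DESeq2). ATF3 was at 56.2 and 169 CPM in YW-LF and 7.37 and 14.3 CPM in DMSO (3.38, SE 0.66). ATF4 itself was at 513 and 1100 CPM in YW-LF and 384 and 366 CPM in DMSO (1.10, SE 0.53, edgeR adjusted p = 0.293). DDIT3 shared the order of SESN2 and GDF15, with replicate 1 above replicate 2, whereas ATF3 and ATF4 had the opposite order. A part of these factors in the SESN2 and GDF15 values was not tested. NR3C1, the glucocorticoid receptor, was at 1.85 (SE 0.50) and HIF1A at 0.28 (SE 0.45).

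FOXO3 was at 143 and 216 CPM in YW-LF and 64.8 and 78.1 CPM in DMSO (1.33, SE 0.40). FOXO1 was at 27.8 and 5.7 CPM in YW-LF and 14.3 and 13.1 CPM in DMSO (0.29, SE 0.71). Its treated libraries lay on either side of the controls, as for SESN3. A part of FOXO factors in the SESN3 values was not tested. Among 14 FOXO targets, 7 lay above and 2 below (median 0.83), beside 28% and 27.8% of all genes tested. In 3, YW-LF replicate 1 was above and replicate 2 below both controls, beside 11.8% of all genes tested. IRS2, an adaptor of the insulin receptor, was at 1.93 (SE 0.45), CCNG2 (cyclin G2) at 1.65 (SE 0.47) and GADD45A at 1.35 (SE 0.42).

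Targets of HIF, the hypoxia factor known to act on DDIT4, had 0 of 9 tested genes above and 2 below, with a median of 0.12. Over all genes tested, 28% lay above and 27.8% below. A part of HIF in the DDIT4 values was not tested. In 4 of the 9, YW-LF replicate 1 was above and replicate 2 below both controls, the arrangement of DDIT4 and of 11.8% of all genes tested. VEGFA, an angiogenic factor, was one of them, at 195 and 33.1 CPM in YW-LF and 40.6 and 43.6 CPM in DMSO (1.44, SE 0.76). PDK1, a pyruvate dehydrogenase kinase, was lower in both, at 18.4 and 13.6 CPM in YW-LF and 33.9 and 42 CPM in DMSO (-1.25, SE 0.38), and the glucose transporter gene SLC2A1 was at 0.20 (SE 0.41). Of 5 tested glucocorticoid receptor targets, 3 lay above and 1 below (median 1.32), beside the same 28% and 27.8% of all genes. PER1, a clock gene, was at 101 and 1360 CPM in YW-LF and 10.8 and 17 CPM in DMSO (5.71, SE 1.26). DUSP1 was at 3.36 (SE 0.71) and TSC22D3 at 1.32 (SE 0.44). The gene below was FKBP5, at 43.9 and 19.3 CPM in YW-LF and 85.4 and 80.8 CPM in DMSO (-1.39, SE 0.47).

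ATF4 targets, a programme to which SESN2 and DDIT4 belong, had 8 of 12 genes above and 2 below, with a median of 1.24. Over all genes tested, 28% lay above and 27.8% below. DESeq2 called 5 higher and 1 lower, beside 5.91% and 4.49% of all genes tested. The gene called lower was ATF5, at 13.5 and 6.99 CPM in YW-LF and 26.3 and 70.6 CPM in DMSO (-2.24, SE 0.61). SLC3A2, a chain of amino acid transporters, was at 746 and 731 CPM in YW-LF and 128 and 163 CPM in DMSO (2.34, SE 0.45). TRIB3, a pseudokinase, was at 238 and 90.2 CPM in YW-LF and 30.7 and 23.5 CPM in DMSO (2.60, SE 0.55), and STC2 at 2.73 (SE 0.66). Of 14 p53 targets besides the sestrins and GDF15, 7 lay above and 2 below (median 0.81), and DESeq2 called 4 higher and 0 lower. SERTAD1, PMAIP1 and CDKN1A led this list, at 2.37 (SE 0.39), 2.56 (SE 0.43) and 2.42 (SE 0.46). edgeR called 0 genes of either list.

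**Figure D5:**
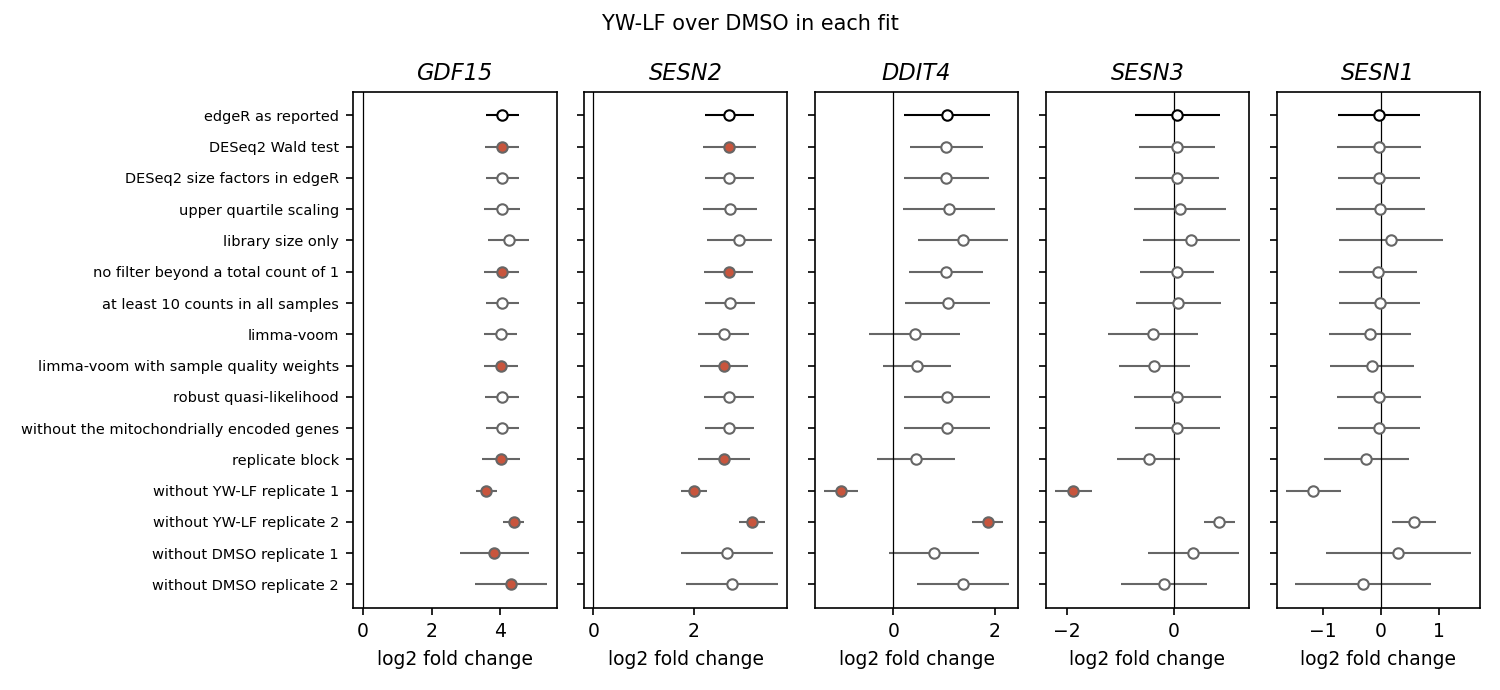
Log2 fold change of YW-LF over DMSO (x axis, bars are SE) for each gene in each fit (rows), filled red where the adjusted p was under 0.05. Fits with a library left out take their spread from the remaining pair alone, so their fill is not interpreted. GDF15 lies between 3.59 and 4.38 and SESN2 between 2.003 and 3.16 in all fits shown, whereas DDIT4, SESN3 and SESN1 lie on both sides of 0.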

How the data were processed

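The deposited table holds raw counts for each Ensembl gene, which are whole numbers with no normalization visible in the values. Library preparation was, per the labels' protocols, an mRNA kit for Illumina with 1.4 µg of total RNA. Aligner, counting tool and strand setting: not given in the sources used here. Mouse builds (GRCm38, mm10) stand in the submitters' processing notes, whereas every row identifier is human. Symbols were assigned to 19836 of 20263 identifiers, and lengths and coordinates come from GENCODE 29 by identifier, with merged exon length. A further 2 columns match no label and were not used.

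Counts were filtered with filterByExpr and TMM-scaled, and YW-LF was tested against DMSO over all 4 libraries in edgeR 4.0.16 (R 4.3.3), with Benjamini-Hochberg adjustment and a threshold of 0.05. An SE is the log2 fold change over the root of its F statistic. log2 CPM used a prior count of 2. Alternatives included DESeq2 1.42.0 and limma 3.58.1 (voom), with other scalings and filters, the replicate number as a block and each library left out. Tests were checked on simulated data.

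The genes and lists were chosen with earlier results of these data known. In each of 15 lists the 3 genes of lowest p with a mean of at least 5 CPM were named (2 in the GDF15 axis, where no other tested gene reached that mean), with the 3 nearest patterns per gene and 7 genes fixed by name (ATF4, DDIT3, ATF3, FOXO1, FOXO3, HIF1A and GFRAL). VIM, AXL, S100A4, KRT8, ERBB2, CDH1, ESR1, RET, FKBP5, ATF5, TP73 and the uncounted markers were named after their values were seen. Promoter sequences are RefSeq's (GRCh38.p14) and were matched for 5 of 5 genes. 1 listed marker of other cell types is not reported here.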

Additional observations from a re-analysis of the deposited data

How the results depend on the processing

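GDF15 and SESN2 kept a positive log2 fold change in all 15 alternatives. Passes were not counted for fits with a library left out. Over all 4 libraries, both genes passed the threshold in DESeq2, in edgeR without a count filter and in limma-voom with sample quality weights. Both genes also passed in edgeR when replicate number was blocked, and in no other fit over all 4 libraries. In DESeq2 their values were 4.05 and 2.71, with 816 genes called higher and 621 lower and 2 of the 5 stress regulators called. Without a count filter they were 4.04 and 2.69 (155 higher, 120 lower, 2 stress regulators), and in limma-voom with sample quality weights 4.02 and 2.60 (175, 56 and 2). The replicate numbers come from no stated batch, and same-numbered libraries did not deviate together (correlation across genes 0.0368). With the replicate number as a block, GDF15 was at 4.02 and SESN2 at 2.59, both past the threshold (edgeR adjusted p = 0.00595 and 0.0252). Of 13816 genes tested, that fit called 186 higher and 145 lower, with 2 stress regulators among the higher ones. SESN3 turned to -0.48 in that fit, -0.40 in limma-voom and -0.37 with quality weights, and SESN1 turned to 0.17 with library size as the only scaling. The cause was not tested.

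Leaving out each library in turn gave 3.59 to 4.38 for GDF15, 2.003 to 3.16 for SESN2, -1.03 to 1.86 for DDIT4, -1.89 to 0.85 for SESN3 and -1.17 to 0.57 for SESN1. Such fits called 46 to 2963 genes higher, 16 to 2919 lower and 1 to 4 of the stress regulators. The counts of higher genes, lower genes and stress regulators came to 2963, 2919 and 4 with YW-LF replicate 1 left out, to 1450, 1453 and 3 with YW-LF replicate 2 left out, to 46, 28 and 1 with DMSO replicate 1 left out and to 48, 16 and 1 with DMSO replicate 2 left out. The remaining pair alone sets the spread there, and the lone library is assumed to vary like it. These counts are therefore not interpreted.

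The difference in sestrin share, YW-LF minus DMSO, was 37.2 percentage points for SESN2, -27.2 for SESN3 and -9.95 for SESN1. Without division by length these were 46.6, -39.7 and -6.86. With each library left out (chosen after seeing the data) they ranged from 31.5 to 42.9, from -31.2 to -23.3 and from -11.7 to -8.22. At 69 to 377 counts SESN1 carries the largest counting error of the 5 genes.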
